A study of Arabidopsis thaliana with 27 samples.

Results

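The RFL genes are a clade of pentatricopeptide repeat (PPR) genes named for their likeness to the Restorer of fertility genes of other plants, and most of those in Arabidopsis lie in clusters on chromosome 1. Measured here were 8 of them (AT1G12620, AT1G12775, AT1G62860, AT1G62914, AT1G63070, AT1G63080, AT1G63150 and AT1G63320), out of 13350 genes named by a probe set with a single gene symbol. They were taken by name from a list drawn up with earlier results of these data known. The platform annotation gives each as the only symbol of 1 probe set, and 8 of 8 were found. A further 7 RFL genes with such a probe set, 4 on chromosome 1 and 3 elsewhere, serve for comparison. RefSeq lists AT1G62860 as a transcribed pseudogene. Of the 8 genes, AT1G63070 and AT1G63080 are direct neighbours in the RefSeq gene order, and 7 genes lie between AT1G63080 and AT1G63150. AT1G12620 and AT1G12775 lie apart from the rest, with 20 genes between them.

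PPR proteins bind organelle RNA, each repeat contacting a base, and act in its cutting, editing, stability or translation. Known RFL proteins act in mitochondria, where several are needed to trim the 5′ ends of particular transcripts. In Arabidopsis, transcripts of the clade are targets of microRNAs such as miR161 and miR400 and of trans-acting siRNAs, and cut transcripts are copied and diced into secondary siRNAs. RDR6 is the RNA-dependent RNA polymerase that makes the double strand, DCL4 is the Dicer-like enzyme that cuts siRNAs from it, and DCL1 releases microRNAs from their hairpins. Trans-acting siRNAs also depend on DCL1, because a microRNA cut starts their production.

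Wild-type Col-0 was compared with the single mutants dcl4-2, rdr6-15 and dcl1-7 on Affymetrix ATH1 arrays, with 3 biological replicates per group and at least 9 plants in each. Rosette leaves 5 to 8 gave 12 arrays in 4 groups (Col-0, dcl4-2, rdr6-15 and dcl1-7). Inflorescences with flowers of stages 1 to 12 gave 15 arrays in 5 groups, because Col-0 was sampled as set A, the control of dcl4-2 and rdr6-15, and as set B, the control of dcl1-7. The sources used here give no plant age. Each genotype is represented by 1 allele, dcl1-7 is known as a partial loss of function, and the mutated genes themselves are not analysed here. Values are log2 RMA summaries, and a level of 1 probe set is not compared with that of another. A gene was called when the Benjamini-Hochberg adjusted p of limma, over 22746 probe sets, was under 0.05. Rose and fell are used for called differences.

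Array medians were 6.93 to 7.00 in leaf and 7.04 to 7.17 in inflorescence, and arrays of 1 group correlated at 0.98 or more across probe sets. The tissue labels were borne out by markers: against leaf, set A had lower levels of 5 of 5 leaf markers and higher levels of 4 of 4 anther and pollen markers. Of the 2 floral organ markers, SPT was higher and INO was not called. RNA integrity was read from control probe sets as their 3′ signal minus their 5′ signal, which was 2.3 to 3.43 in leaf. In inflorescence it was high on 3 arrays, at 2.45 for dcl4-2 replicate 2, 2.53 for set B replicate 3 and 2.48 for dcl1-7 replicate 3, while the other arrays of those groups were at 1.22 to 1.48. The 2 Col-0 sets also differed from each other, with 47.7% of all probe sets called between them.

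AT1G12775 was the RFL gene that stood higher in the leaves of all 3 mutants. Its level was 5.14, 5.15 and 5.32 in Col-0 leaf, 6.11, 6.29 and 6.21 in dcl4-2, 5.91, 5.99 and 6.55 in rdr6-15, and 6.43, 6.73 and 6.11 in dcl1-7. All 9 mutant arrays lay above all 3 Col-0 arrays, while the 3 mutant groups overlapped each other. Of all probe sets, 4.93% in dcl4-2, 3.78% in rdr6-15 and 11% in dcl1-7 lay above Col-0 leaf in this way. In dcl1-7 leaf AT1G12775 rose by 1.22 (SE 0.178, limma adjusted p = 0.00187). It was the only member called of 8 there, where 9.42% of all probe sets were called, and it was called under all 13 alternatives tried. In bulk tissue, fewer cells of a type and less RNA per cell cannot be told apart. The leaf markers CHLI2, HEME1, HEME2, LHCB4.2 and LHCB4.3 were lower in the same leaves: 4 of 5 fell, and their mean level per array was 10.5 to 10.77 against 11.22 to 11.44 in Col-0. Their part in the AT1G12775 difference was not tested.

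In dcl4-2 leaf AT1G12775 stood 1.00 above Col-0 (SE 0.178) and in rdr6-15 leaf 0.95 above (SE 0.178), about as far as in dcl1-7, but neither passed (limma adjusted p = 0.348 and 0.485). By limma 0 of 8 members were called in dcl4-2 leaf, where 0% of all probe sets were called, and 1 of 8 was higher at an unadjusted p under 0.05, against 1.81% of all probe sets. In rdr6-15 leaf 0 of 8 were called, against 0.0176% of all probe sets, and again 1 of 8 was higher at an unadjusted p under 0.05, against 1.74%. By p, AT1G12775 ranked 8 of 22746 probe sets in dcl4-2 leaf and 9 in rdr6-15 leaf. Taking both mutants together, the difference was 0.97 (SE 0.155, limma adjusted p = 0.163), rank 5 by p, in a comparison that called 0.0132% of all probe sets and 0 of 8 members. At an unadjusted p under 0.05, 1 of 8 was higher, against 1.55%. Between dcl4-2 and rdr6-15 leaf, limma called 0 of 8, against 0.0132%. At an unadjusted p under 0.05, 0 of 8 differed, while 2.63% of all probe sets were higher and 2.19% lower. When the spread was estimated from all 27 arrays, the gene passed in dcl4-2 leaf (limma adjusted p = 0.0174), in rdr6-15 leaf (0.0213) and for their mean (0.00292). That fit called 19, 16 and 15 of all probe sets. It was the only alternative under which AT1G12775 passed, 1 of 13, 1 of 13 and 1 of 16 tried.

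**Figure D1:**
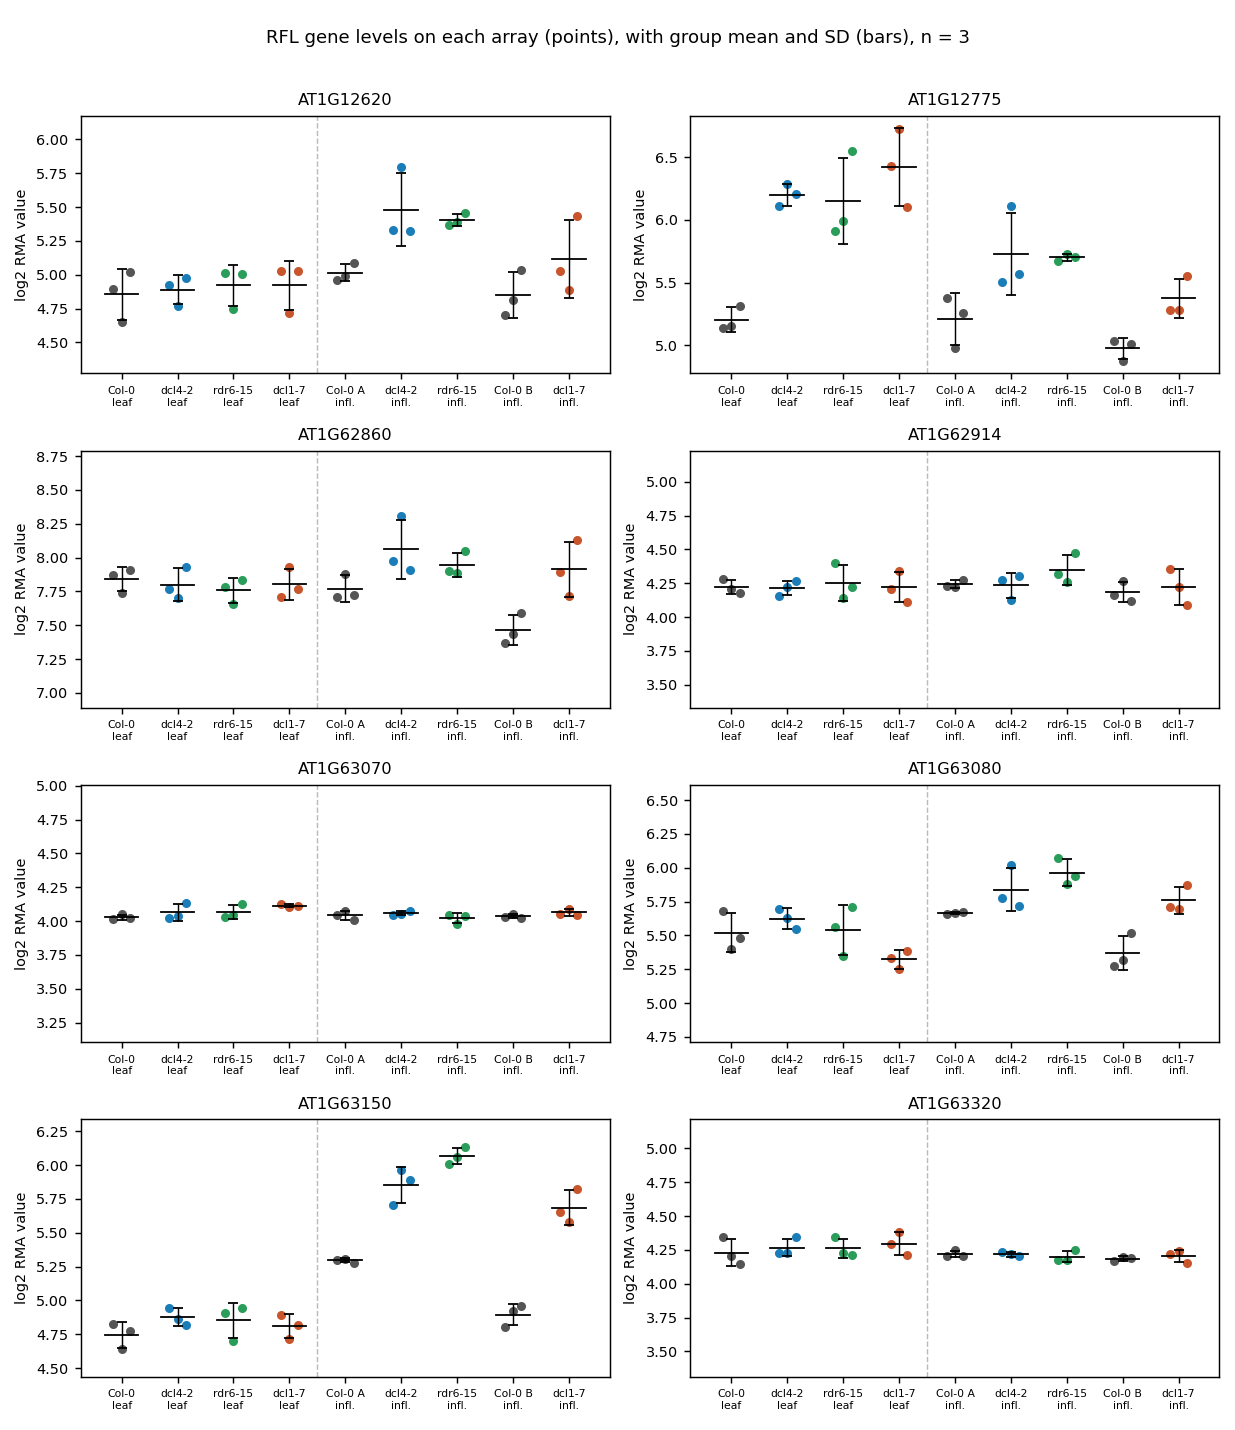
Level of each of the 8 RFL genes (log2 RMA value, vertical axis, own range per panel) on each of the 27 arrays; points are arrays, lines are group means and bars the SD (n = 3). AT1G12775 stands between 5.91 and 6.73 in the mutant leaves and at 5.32 or below in Col-0 leaf, while AT1G63150 changes in inflorescence.

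The same gene was higher in the inflorescences of the mutants too, by a smaller difference. AT1G12775 was at 5.38, 4.98 and 5.26 in set A, 5.51, 6.11 and 5.57 in dcl4-2, and 5.67, 5.73 and 5.70 in rdr6-15. It was at 5.04, 4.88 and 5.01 in set B and at 5.28, 5.28 and 5.55 in dcl1-7. Each mutant group lay wholly above its own Col-0 set. The differences were 0.52 in dcl4-2, 0.49 in rdr6-15 and 0.40 in dcl1-7 (SE 0.144 each). None passed, with limma adjusted p = 0.0924, 0.0527 and 0.0648. Against set A the dcl1-7 difference of AT1G12775 was 0.167. Ordered by mean, the lowest group was set B, followed by Col-0 leaf, set A, dcl1-7 inflorescence, rdr6-15 inflorescence, dcl4-2 inflorescence, rdr6-15 leaf, dcl4-2 leaf and dcl1-7 leaf. Only set B with Col-0 leaf, and dcl1-7 with rdr6-15 inflorescence, were neighbours in that order without overlap.

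AT1G63150 rose in all 3 mutant inflorescences. Set A was at 5.30, 5.31 and 5.28, dcl4-2 at 5.70, 5.97 and 5.89, and rdr6-15 at 6.01, 6.06 and 6.13. Set B was at 4.81, 4.92 and 4.96 and dcl1-7 at 5.65, 5.58 and 5.83. No mutant array overlapped its Col-0 set. The rise was 0.56 in dcl4-2 (SE 0.0788, limma adjusted p = 0.00452), 0.77 in rdr6-15 (SE 0.0788, limma adjusted p = 1.89e-04) and 0.79 in dcl1-7 (SE 0.0788, limma adjusted p = 1.35e-05). AT1G63150 was the 1 member of 8 called in dcl4-2, where 2.08% of all probe sets were called, and the 1 of 8 called in rdr6-15, where 8.66% were. It was called under every alternative setting tried for these 3 comparisons. The mean of dcl4-2 and rdr6-15 stood 0.66 above set A (SE 0.0682, limma adjusted p = 6.59e-04), again the 1 member of 8 called, with 2% of all probe sets called.

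The 2 Col-0 sets differed for this gene, where the level fell by 0.40 in set B against set A (limma adjusted p = 7.98e-04). Against set A in place of its own control, the dcl1-7 difference was 0.39 (limma adjusted p = 0.00168), and against the mean of both sets it was 0.59 (limma adjusted p = 1.54e-04). The levels of dcl4-2 and rdr6-15 inflorescence did not overlap, and dcl4-2 minus rdr6-15 was −0.21 (SE 0.0788, limma adjusted p = 0.0898). Among the 8 members 0 were called by limma between these 2 mutants, where 15.4% of all probe sets were called, and 1 of 8 was lower at an unadjusted p under 0.05, against 14.9% of all probe sets. The difference of AT1G63150 passed when each array was centred on its median (adjusted p = 0.046) and with array weights (0.0137).

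In leaf the AT1G63150 level differed little between genotypes. Only 8.8% of all probe sets lay below it there by mean signal, so a difference in leaf may not have been detectable. Col-0 leaf had 4.83, 4.64 and 4.77, and the 9 mutant leaf arrays lay between 4.70 and 4.95. The differences were 0.13 in dcl4-2, 0.11 in rdr6-15 and 0.06 in dcl1-7, none of them called, and each mutant group overlapped Col-0. The leaf groups and set B overlapped as neighbours in the order of means. Above them came set A, then dcl1-7 and dcl4-2 inflorescence, which overlapped, and rdr6-15 inflorescence highest. In wild-type plants AT1G63150 rose by 0.55 from leaf to set A inflorescence (SE 0.0849, limma adjusted p = 7.67e-06). It was the only one of 8 members called between Col-0 leaf and set A, where 60% of all probe sets were called. Set B, the other wild-type inflorescence set, had a mean of 4.89 against 4.75 in Col-0 leaf, and their arrays overlapped. That difference was not tested. The array medians of set A were 0.164 higher than those of Col-0 leaf, and with arrays centred the AT1G63150 difference was 0.385.

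**Figure D2:**
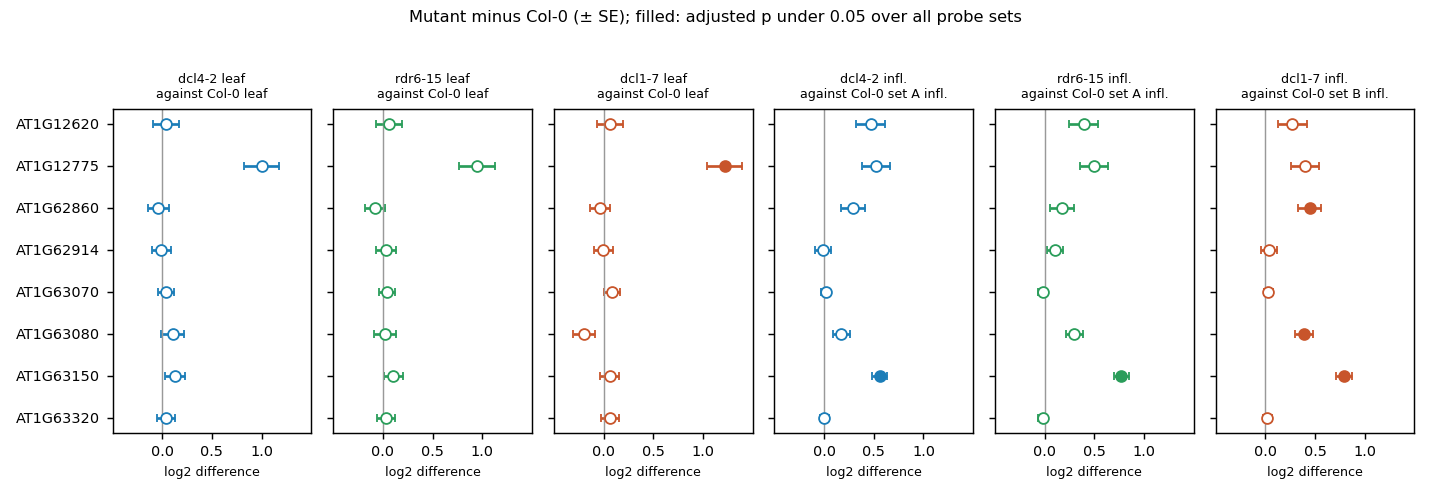
Difference in log2 level, mutant minus Col-0 (horizontal axis), for each of the 8 RFL genes in the 6 mutant comparisons; points are estimates, bars are the SE of the limma fit, and filled points were called. AT1G12775 is at 0.95 to 1.22 in leaf and AT1G63150 at 0.56 to 0.79 in inflorescence.

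The pseudogene AT1G62860 and the gene AT1G63080 were the other members called in dcl1-7 inflorescence. AT1G62860 was at 7.37, 7.44 and 7.59 in set B and at 7.89, 7.72 and 8.13 in dcl1-7, a rise of 0.45 (SE 0.118, limma adjusted p = 0.0149). AT1G63080 was at 5.27, 5.32 and 5.52 in set B and at 5.71, 5.69 and 5.87 in dcl1-7, a rise of 0.39 (SE 0.0893, limma adjusted p = 0.00651). For both, dcl1-7 lay wholly above set B. With AT1G63150, 3 of 8 members were called in this comparison, where 23.4% of all probe sets were called.

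The AT1G62860 call was lost without set B replicate 1 (difference 0.40, limma adjusted p = 0.0596), set B replicate 2 (0.433, 0.0511) or dcl1-7 replicate 3 (0.339, 0.0606), and in a fit of these 2 groups alone (0.447, 0.0583). Both calls depended on which Col-0 set was the control. Set A was higher than set B for AT1G62860, at 7.71, 7.88 and 7.72, and for AT1G63080, at 5.66, 5.66 and 5.67. In set B against set A the level fell by 0.31 for AT1G62860 (SE 0.118, limma adjusted p = 0.0488) and by 0.29 for AT1G63080 (SE 0.0893, limma adjusted p = 0.015). Together with AT1G63150, 3 of 8 members were called between the Col-0 sets, against 47.7% of all probe sets. Without set B replicate 1, and likewise without set B replicate 2, only AT1G63150 was called between them, and AT1G62860 was not called without any single set A array either (adjusted p = 0.0687 to 0.161). Against set A, dcl1-7 stood 0.141 higher for AT1G62860 (limma adjusted p = 0.418) and 0.0957 higher for AT1G63080 (limma adjusted p = 0.474), neither called.

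Levels of floral organ and leaf markers also differed between these inflorescence groups, not in the same order as the RFL genes. The mean level of the 2 floral markers, INO and SPT, was 7.84 to 8.12 per array in set B, 7.10 to 7.38 in dcl1-7 and 6.93 to 7.16 in set A. Both fell in dcl1-7 against set B. The mean of the 5 leaf markers was 9.96 to 10.16 in set B, 10.14 to 10.55 in dcl1-7 and 10.64 to 10.70 in set A, and 1 of 5 rose in dcl1-7. For the 4 anther and pollen markers (AGL66, AMS, MGH3 and SPL) the mean was 6.57 to 6.87 in set B, 6.44 to 6.60 in dcl1-7 and 6.85 to 7.09 in set A, and 0 of 4 were called by limma in dcl1-7, with 0 at an unadjusted p under 0.05. In rdr6-15 inflorescence, 1 of 5 leaf markers rose and 2 of 4 anther markers fell. In dcl4-2 inflorescence 1 of 5 leaf markers fell. No marker was at 0 on any array, and the part of these markers in the RFL differences was not tested.

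In dcl4-2 and rdr6-15 inflorescence these genes lay above set A without being called. AT1G62860 was at 7.97, 8.31 and 7.91 in dcl4-2, higher by 0.29 (limma adjusted p = 0.282), and at 7.90, 7.89 and 8.05 in rdr6-15, higher by 0.17 (0.463). AT1G63080 was at 5.78, 6.02 and 5.72 in dcl4-2, higher by 0.17 (limma adjusted p = 0.43), and at 6.07, 5.88 and 5.94 in rdr6-15, higher by 0.30 (0.0575). AT1G62860, AT1G63080, AT1G63150, AT1G12620 and AT1G12775 had all dcl4-2 arrays above all set A arrays, 5 of 8 members, as did 11.2% of all probe sets. The count was 5 of 8 for rdr6-15 as well, where 21.2% of all probe sets lay so. In dcl1-7 against set B it was 4 of 8, against 16.5% of all probe sets. The dcl4-2 and rdr6-15 comparisons share set A.

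In leaf, AT1G62860 and AT1G63080 showed no called difference. The 12 leaf values of AT1G62860 lay between 7.65 and 7.93, with the groups overlapping. AT1G63080 was at 5.68, 5.40 and 5.48 in Col-0 leaf and at 5.33, 5.25 and 5.39 in dcl1-7 leaf. All dcl1-7 arrays lay below Col-0, as they did for 12% of all probe sets, and the difference of −0.20 was not called (SE 0.113, limma adjusted p = 0.326).

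AT1G12620 was not called in any mutant comparison as fitted here. By mean signal, 10.4% of all probe sets lay below it in leaf and 18.7% in inflorescence, so a difference may not have been detectable. AT1G12620 was at 4.96, 4.99 and 5.09 in set A, 5.33, 5.79 and 5.32 in dcl4-2, and 5.37, 5.39 and 5.46 in rdr6-15. Both mutants lay wholly above set A, by 0.47 (SE 0.146, limma adjusted p = 0.14) and 0.39 (SE 0.146, limma adjusted p = 0.128). In dcl1-7 it was at 5.03, 4.89 and 5.44, overlapping set B at 4.70, 4.81 and 5.03, with a difference of 0.27 (limma adjusted p = 0.236). In leaf its 4 groups overlapped, with means from 4.86 to 4.92.

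AT1G62914, AT1G63070 and AT1G63320 stayed near the lowest values of the arrays in all 9 groups. AT1G62914 lay between 4.09 and 4.47, AT1G63070 between 3.98 and 4.13, and AT1G63320 between 4.15 and 4.38 over the 27 arrays. Their group means spanned 0.163, 0.092 and 0.11. None of these genes was called in the comparisons as fitted here, and at such levels a difference may not have been detectable. With each array centred on its median, AT1G63070 (−0.15, limma adjusted p = 0.0274) and AT1G63320 (−0.175, 0.0192) were called lower in set A than in leaf. When the lowest 25% of probe sets by mean signal was left out, 2 of 8 members passed that filter in leaf (AT1G12775 and AT1G62860) and 3 of 8 in inflorescence (AT1G62860, AT1G63080 and AT1G63150).

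Several members were highest of their group on the inflorescence arrays with a high 3′ minus 5′ control difference. On dcl4-2 replicate 2, 5 of 8 members were the highest of the group, as were 40.6% of all probe sets. On set B replicate 3 the count was 4 of 8, against 42.4%, and on dcl1-7 replicate 3 it was 5 of 8, against 38.4%. Without these 3 arrays, the dcl4-2 difference was 0.311 for AT1G12620 (limma adjusted p = 0.0261), 0.332 for AT1G12775 (0.0955) and 0.501 for AT1G63150 (0.00402). It was 0.167 for AT1G62860 and 0.0833 for AT1G63080, neither called. Calls over all probe sets went from 473 to 916 for dcl4-2.

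For rdr6-15, which has no such array, the estimates stayed and the calls grew in number. With the 3 arrays left out, AT1G12620 (limma adjusted p = 0.00121), AT1G12775 (0.00324), AT1G63080 (0.00397) and AT1G63150 (3.85e-05) passed. For dcl1-7, AT1G62860 stood 0.40 above set B (limma adjusted p = 0.00466), AT1G63080 0.406 above (0.00103) and AT1G63150 0.753 above (3.35e-05). The calls of these 3 genes in dcl1-7 therefore held without the arrays of high 3′ minus 5′ difference. AT1G12775 stood 0.328 above set B and was then called too (0.0409). Calls over all probe sets went from 5314 to 6860 for dcl1-7.

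**Figure D3:**
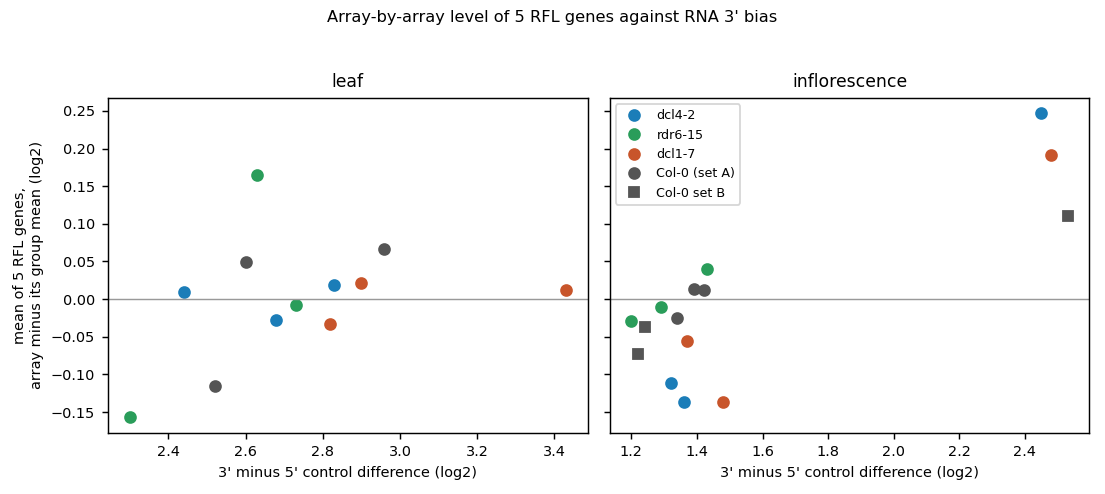
Mean level of 5 RFL genes minus the mean of its group (log2, vertical axis) against the 3′ minus 5′ control difference (log2, horizontal axis) for leaf and inflorescence arrays, each point an array. The genes are AT1G12620, AT1G12775, AT1G62860, AT1G63080 and AT1G63150, chosen after their values were seen; the 3 inflorescence arrays at 2.45 to 2.53 lie above the mean of their group.

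Whether a mutant's effect differed between the organs was tested as an interaction over all 27 arrays. For AT1G63150 the effect was larger in inflorescence by 0.67 in rdr6-15 (SE 0.12, limma adjusted p = 0.00269) and by 0.73 in dcl1-7 (SE 0.12, limma adjusted p = 1.13e-04). For dcl4-2 it was larger by 0.43 and was not called (SE 0.12, limma adjusted p = 0.192). For the mean of dcl4-2 and rdr6-15 it was larger by 0.55 (SE 0.104, limma adjusted p = 0.0309). AT1G63080 differed in the same direction in dcl1-7, by 0.59 (SE 0.141, limma adjusted p = 0.00388), and AT1G62860 by 0.48 (SE 0.156, limma adjusted p = 0.0292). The dcl1-7 tissue differences use set B and were not refitted with set A, against which the inflorescence differences of these genes were smaller. The AT1G62860 value was not called without Col-0 leaf replicate 1 or 3, dcl1-7 leaf replicate 1 or 3, set B replicate 1 or 2, or dcl1-7 inflorescence replicate 3 (0.374 to 0.467, adjusted p = 0.0523 to 0.092), nor with array weights (0.375, adjusted p = 0.0592). The AT1G63150 value for the mean of dcl4-2 and rdr6-15 was not called without Col-0 leaf replicate 1 or 3, any single set A array, dcl4-2 inflorescence replicate 2, or rdr6-15 inflorescence replicate 2 or 3 (0.507 to 0.553, adjusted p = 0.0556 to 0.128).

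AT1G12775 went the opposite way. Its dcl1-7 effect was smaller in inflorescence than in leaf, with a difference of −0.82 (SE 0.236, limma adjusted p = 0.0144), while those of dcl4-2 (−0.48, limma adjusted p = 0.74) and rdr6-15 (−0.45, limma adjusted p = 0.429) were not called. Without dcl1-7 leaf replicate 2, the dcl1-7 value was no longer called (adjusted p = 0.051). In all, 4 of 8 members were called for dcl1-7, where 22.3% of all probe sets were called. The count was 1 of 8 for rdr6-15 against 2.45%, 1 of 8 for the mean of dcl4-2 and rdr6-15 against 0.127%, and 0 of 8 by limma for dcl4-2 against 0.224%. For dcl4-2, 3 of 8 were larger in inflorescence at an unadjusted p under 0.05, against 3.38% of all probe sets.

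Some of the genes varied together over the arrays. After the mean of each tissue was subtracted, AT1G63080 and AT1G63150 had a Pearson correlation of 0.838 over the 27 arrays, with 0.672 in leaf and 0.922 in inflorescence. AT1G12620 and AT1G62860 had 0.825, of which leaf gave 0.247 and inflorescence 0.909. AT1G12620 and AT1G12775 had 0.116 in leaf and 0.914 in inflorescence. The direct neighbours AT1G63070 and AT1G63080 had −0.154, with AT1G63070 near the array floor. The arrays share genotype groups and RNA quality, so these values describe the arrays and carry no test.

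**Figure D4:**
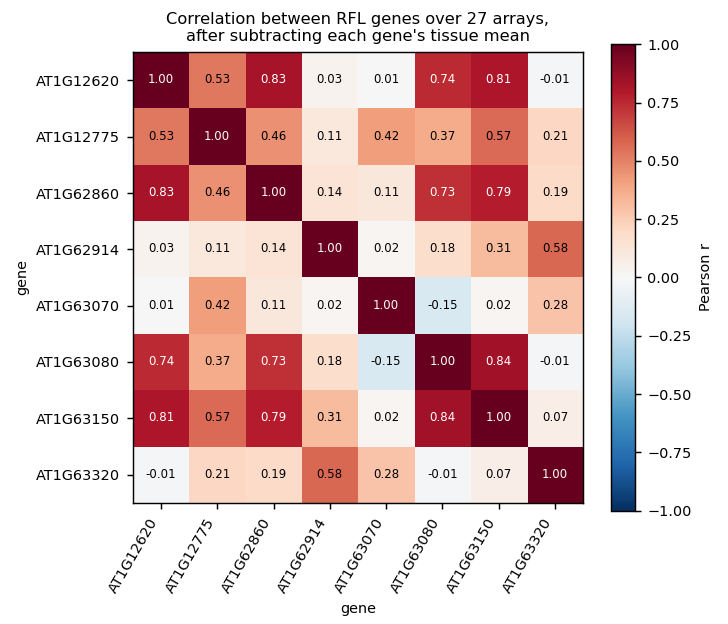
Pearson correlation between each pair of the 8 RFL genes over the 27 arrays after the mean of each tissue was subtracted; both axes list the genes in chromosome order and the colour gives r. AT1G12620, AT1G62860, AT1G63080 and AT1G63150 form the high values, up to 0.838.

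Among 13512 other probe sets with a single symbol, the patterns most like that of AT1G63150 by the same correlation were AT3G15720 (0.855), AT1G55200 (0.853) and BCAT4 (0.851). For AT1G12775 they were AT1G14210 (0.768), AT1G05720 (0.736) and AT3G47590 (0.732). AT1G62860 was most like AT2G22900 (0.882), AT2G23360 (0.876) and AT1G15270 (0.855), and AT1G63080 most like AT3G52900 (0.919), AT5G57120 (0.878) and AT4G16800 (0.876). None of these 12 genes is among the RFL loci considered.

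The 7 further RFL genes, AT1G62680, AT1G63400, AT1G64100, AT1G64580, AT4G26800, AT5G16640 and AT5G41170, had 0 called by limma in each of the 6 mutant comparisons. At an unadjusted p under 0.05, 1 of 7 was higher in dcl4-2 inflorescence, against 7.89% of all probe sets, and 3 of 7 in rdr6-15 inflorescence, against 12.4%, with 0 in the other 4 comparisons. The shares of all probe sets called in these comparisons are those given above, from 0% in dcl4-2 leaf to 23.4% in dcl1-7 inflorescence. The median difference of the 8 members, the 7 further RFL genes and all probe sets was 0.233, −0.003 and −0.00667 in dcl4-2 inflorescence. It was 0.236, 0.0973 and 0.0183 in rdr6-15 inflorescence, and 0.329, 0.0393 and −0.006 in dcl1-7 inflorescence. Both RFL lists were chosen with earlier results of these data known, so this contrast of medians carries no test. In leaf the medians of the 8 members were 0.0358, 0.0348 and 0.0632 for dcl4-2, rdr6-15 and dcl1-7, far below the AT1G12775 differences. Only AT1G12775 and AT1G62860 passed the low-signal filter in leaf. For the other members a leaf difference may not have been detectable. Between the Col-0 sets AT1G64580 fell by 0.43 in set B (limma adjusted p = 0.0028) and AT5G16640 by 0.19 (0.0108). From Col-0 leaf to set A inflorescence AT5G41170 fell by 0.46 (limma adjusted p = 0.00434) and AT4G26800 rose by 0.17 (0.0499).

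**Figure D5:**
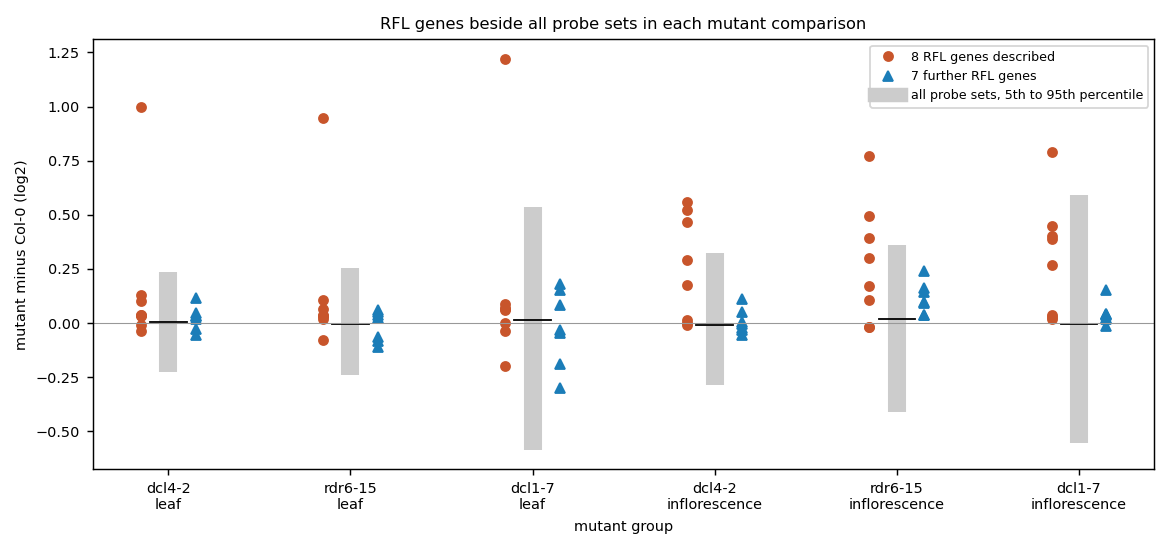
Difference in log2 level, mutant minus Col-0 (vertical axis), in the 6 mutant comparisons for the 8 RFL genes described and the 7 further RFL genes; each point is a gene, and the grey bar and black line give the 5th to 95th percentile and the median of all probe sets. The further RFL genes have medians between −0.034 and 0.0973.

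Of 42 other small RNA targets, listed with earlier results of these data known, 6 matched a probe set with a single gene symbol. All 6 rose in dcl1-7 leaf, where 4.18% of all probe sets rose, and all 6 rose in dcl1-7 inflorescence, where 12.6% did. They include PHV, a leaf polarity factor that is a microRNA target (0.99 in leaf, limma adjusted p = 0.00132), AGL16, a MADS-box factor (1.02 in leaf, 0.00187; 2.04 in inflorescence, 1.14e-06), and CCS, the copper chaperone of superoxide dismutase (1.18 in leaf, 0.00366). ARPN, a plantacyanin, rose by 1.39 (limma adjusted p = 8.17e-07) and APS3, an ATP sulfurylase, by 0.57 (6.41e-04) in dcl1-7 inflorescence. In dcl4-2 and rdr6-15 leaf 0 of 6 were called by limma. At an unadjusted p under 0.05, 0 of 6 differed in dcl4-2 leaf, where 1.81% of all probe sets were higher and 1.06% lower. In rdr6-15 leaf 2 of 6 were lower, against 1.66% of all probe sets, and 0 were higher, against 1.74%. CCS fell by 0.63 in dcl4-2 inflorescence (limma adjusted p = 0.0235), and ARPN by 0.68 (0.00124) and APS4, another ATP sulfurylase, by 0.93 (0.00429) in rdr6-15 inflorescence.

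A search of gene symbols and synonyms found 2 PPR genes outside the clade, PPR336 and PPR596, and may have missed others. Of these, 0 were called by limma in the leaf comparisons or in dcl4-2 and rdr6-15 inflorescence. In dcl1-7 leaf 2 of 2 were lower at an unadjusted p under 0.05, as were 12.9% of all probe sets. PPR596 rose by 0.59 in dcl1-7 inflorescence (limma adjusted p = 0.05 after rounding), and it fell by 2.01 in set B against set A (2.06e-06). Of 2 measured genes of the small RNA machinery, AGO7, the Argonaute partner of a microRNA that starts trans-acting siRNA production, rose by 0.51 in dcl1-7 inflorescence (limma adjusted p = 0.00369). AGO7 fell by 0.66 in set B against set A (1.79e-04). SE, which helps DCL1 cut hairpins, was not called in any mutant comparison.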

How the data were processed

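Total RNA of 27 samples was measured on ATH1 arrays. The authors deposited log2 expression values, 1 per probe set and array. Per the submitters' processing notes these are RMA values, a method that corrects background, normalizes arrays and summarises probes. The RMA version and any joint normalization of the tissues are not given here. The scale was judged from the range of the values. RMA compresses differences of weakly expressed genes. Arrays have no read depth, and their number limits the precision.

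Of 22810 probe sets, 64 controls were left out and 22746 tested, with no filter on low signal. The platform annotation gives 1 symbol for 13513, several for 503 and none for 8730. Of 30 RFL loci considered, 15 had a probe set of their own, and 2 probe sets that carry several RFL symbols were not used. All 8 member probe sets have names ending in "_at" without the marks for shared sequence, but close relatives may still cross-hybridise. RefSeq (TAIR10.1) was used for names and neighbours.

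limma 3.58.1 in R 4.3.3 (lmFit, eBayes) was fitted to the 12 leaf and the 15 inflorescence arrays separately, and to all 27 for the organ comparison and the tissue differences. Errors are SEs of the fit. The fit was checked on simulated data. Alternatives covered normalization, low signal, arrays in the fit, array weights, variance model, control set, arrays of high 3′ minus 5′ difference, and each replicate left out.

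The 8 members and the gene lists were chosen with earlier results of these data known. All members are named, with up to 3 called genes of smallest adjusted p per other list and comparison, and the 3 nearest patterns of each member called in a mutant.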

Additional observations from a re-analysis of the deposited data

Results flagged for a closer look

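A difference between the leaf and inflorescence effects of a mutation was called for the following genes, by the interaction term of limma over all 27 arrays. By mean signal, 8.8% of all probe sets lay below AT1G63150 in leaf and 23.9% below AT1G63080. In inflorescence, 23.3% lay below AT1G12775. At such levels RMA compresses differences, so an effect in that organ may not have been detectable. For AT1G63150 the effect was larger in inflorescence by 0.67 for rdr6-15, by 0.73 for dcl1-7 and by 0.55 for the mean of dcl4-2 and rdr6-15. The last was called in 13 of 21 alternatives. In dcl1-7, AT1G63080 differed by 0.59 and AT1G62860 by 0.48, with the larger effect in inflorescence. The AT1G63080 value was called in 16 of 16 alternatives and the AT1G62860 value in 8 of 16. AT1G12775 differed by −0.82 in dcl1-7, with the larger effect in leaf, and was called in 15 of 16 alternatives. The dcl1-7 differences use set B as the inflorescence control, which was lower than set A for AT1G62860, AT1G63080 and AT1G63150. Against set A, dcl1-7 inflorescence stood 0.141, 0.0957 and 0.39 higher for these genes, in place of 0.45, 0.39 and 0.79. The tissue differences were not refitted with set A.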

How the results depend on the processing

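No paired analysis was possible because the labels give the groups no shared replicate numbers. The member counts by limma changed as follows. With all 27 arrays in 1 fit, 1 of 8 was called in dcl4-2 leaf, 1 in rdr6-15 leaf and 1 for their mean (AT1G12775 each time), against 0. With array weights, the counts in inflorescence were 2 in dcl4-2, 4 in rdr6-15 and 4 for their mean, with totals of 1432, 5254 and 2208. Between these mutants 1 was called, with a total of 5082. Between the Col-0 sets 5 were called, with a total of 13557. In dcl1-7 4 were called (AT1G12775 added), with a total of 7510. The dcl1-7 tissue difference gave 3 in place of 4 (AT1G62860 lost). Without arrays of high 3′ minus 5′ difference the inflorescence counts were 2 in dcl4-2, 4 in rdr6-15 and 3 for the mean. The totals were 916, 4574 and 1309. In dcl1-7 the count was 4 (AT1G12775 added), with a total of 6860. With arrays centred on their median the inflorescence counts were 3 in rdr6-15, 2 for the mean and 1 between the mutants. The totals were 2050, 515 and 3598. Between the Col-0 sets 2 were called in place of 3 (AT1G62860 lost, adjusted p = 0.0772). In the organ comparison 3 were called, with a total of 15806. There AT1G63070 turned from 0.0143 to −0.15 (adjusted p = 0.0274) and AT1G63320 was called at −0.175 (0.0192). A trended robust variance gave 2 in rdr6-15, 2 for the mean and 4 in dcl1-7 (AT1G12775 added, adjusted p = 0.0467). The totals were 1801, 393 and 5085. Between the Col-0 sets the same variance model gave 2 (AT1G62860 lost, adjusted p = 0.0573). A fit of the groups compared alone gave 4 in rdr6-15, and in dcl1-7 it gave 3 with AT1G12775 (0.0428) in place of AT1G62860 (0.0583). The totals were 4476 and 3303. For dcl1-7 inflorescence, set A or the mean of both sets as control gave 1 in place of 3, with totals of 8010 and 2841. Leaving out the lowest 25% of probe sets removes AT1G63150 from the fit of both tissues. The organ comparison and the tissue differences of rdr6-15 and of the mean then gave 0 in place of 1. Totals over the probe sets kept were 11704, 543 and 26. The dcl1-7 tissue difference gave 3 in place of 4. With 1 array left out, the counts were 2 to 3 in dcl1-7 inflorescence, 1 to 2 for the mean in inflorescence (2 without dcl4-2 replicate 2), 1 to 3 between the Col-0 sets, 3 to 4 for the dcl1-7 tissue difference and 0 to 1 for that of the mean, and the other counts were the same. Totals over all probe sets thus moved too. In the main fits they were 473 in dcl4-2 inflorescence, 1969 in rdr6-15, 454 for their mean and 3513 between these mutants. They were 10847 between the Col-0 sets, 5314 in dcl1-7 inflorescence and 13643 in the organ comparison. With 3 arrays per group, and with 3 members near the array floor, small differences could not be detected.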
